A study of Mus musculus with 6 samples.

Results

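The genes of hyaluronan synthesis, binding and breakdown were examined in primary mouse cardiac fibroblasts after Cre-mediated *Tet3* deletion. The 10 genes were selected by symbol from the 22063 genes of the deposited table, and all 10 had enough counts to be tested. The list was chosen on knowledge of the pathway with results of the same comparison, CRE against GFP, already known. The changes of these 10 genes are therefore given as a description, and the calls on them support nothing further. RNA was sequenced from *Tet3* f/f fibroblasts transduced with an adenovirus carrying GFP (the control genotype, GFP) or Cre recombinase (labelled *Tet3* knockout, CRE), with 3 libraries in each group. Both groups carried the floxed alleles, had received an adenovirus and had been treated with TGF-β, the cytokine that activates fibroblasts. The age of the animals is not given in the sources used here, and the study speaks of biological replicates without saying whether these libraries came from separate animals or cultures, so p-values measure the spread between these libraries.

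Hyaluronan is a long, unsulphated polysaccharide of glucuronic acid and N-acetylglucosamine that fills the extracellular space of connective tissue and takes up water. Synthases of the HAS family spin it out at the plasma membrane from UDP-sugars. Secreted and surface proteins then bind it, cross-link it or cut it, and lysosomal enzymes finish its breakdown. In the injured heart, activated fibroblasts lay down a provisional matrix in which hyaluronan and versican precede and accompany collagen.

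Total gene counts were between 17002126 and 20343590 per library, and no library repeated another of its group (chi-square divided by its degrees of freedom was 4.05 at the least, and 12.1 for GFP replicates 1 and 2). *Tet3* itself (chromosome 6) fell from 57.1 ± 6.88 CPM to 34.7 ± 1.17 CPM (SD, n = 3), where CPM is the gene's count relative to all counts of the library, scaled for library composition. Its log2 fold change was -0.72 (SE 0.08), so the CRE libraries kept 60.8% of the control level. The count covers the whole gene and does not separate the floxed exons. The 7 fibroblast markers summed to between 27300 and 28420 CPM in GFP and between 16510 and 17920 CPM in CRE, most of it from *Col1a1* and *Col1a2*, and 6 were lower in CRE. *Tcf21* was at 36.1 ± 3.08 CPM in GFP and *Thy1*, the one that did not pass, at 26.4 ± 2.02 CPM (SD, n = 3). All 6 cardiomyocyte markers were under 1 CPM and *Myh6* was at 0. Of 8 endothelial markers, 7 were lower in CRE, with summed levels of 360.1 to 393.4 CPM in GFP and 179.0 to 204.8 CPM in CRE. The 8 macrophage markers summed to between 33.4 and 36.1 CPM in GFP and between 20.6 and 24.9 CPM in CRE. Most of that sum was *Lyz2*, at 23.47 ± 1.125 CPM in GFP and 14.58 ± 1.016 CPM in CRE (SD, n = 3). Among the 5 tested, *Lyz2* and *Adgre1* were lower. *Cd68* (log2 fold change -0.43), *Csf1r* (-0.05) and *Itgam* (-0.11) did not pass, and 4 of the 8 were under 1 CPM. The 6 smooth muscle and pericyte markers (1 higher, 3 lower) summed to 66.6 to 75.1 CPM in GFP and 62.2 to 70.3 CPM in CRE. The 5 mesothelial markers summed to 7.33 to 8.68 CPM and 7.18 to 10.8 CPM, with 2 higher and 1 lower. Among the 3 lymphatic markers, *Flt4* was higher and *Prox1* and *Lyve1* lower, and their sum was 40.9 to 48.4 CPM in GFP and 68.3 to 81.85 CPM in CRE.

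The members lie on separate chromosomes except for 2 pairs. *Hyal1* (chromosome 9, positions 107576927 to 107581710) and *Hyal2* (107567945 to 107572779) are neighbours on the plus strand in GRCm38, and *Cd44* and *Tnfaip6* are both on chromosome 2 but far apart. RefSeq promoter windows (GRCm38.p6, 250 bases before to 50 bases after the start) matched 7 of the 10 members. The 250 bases upstream of 3 starts are shown because they belong to the members with the lowest and the highest log2 fold change that have a window, *Cemip* and *Hyal1*, and to the down-regulated *Vcan*. Each is written 5′ to 3′ along the gene, with every CpG, the dinucleotide whose methylated cytosine TET enzymes oxidise, in capitals.

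*Cemip* (chr7:84086506-84086755, minus strand): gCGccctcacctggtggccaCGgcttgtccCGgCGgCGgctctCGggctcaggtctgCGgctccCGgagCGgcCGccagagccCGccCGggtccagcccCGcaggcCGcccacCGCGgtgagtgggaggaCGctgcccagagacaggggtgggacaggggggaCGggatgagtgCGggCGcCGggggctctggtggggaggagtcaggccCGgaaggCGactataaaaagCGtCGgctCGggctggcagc

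*Vcan* (chr13:89742513-89742762, minus strand): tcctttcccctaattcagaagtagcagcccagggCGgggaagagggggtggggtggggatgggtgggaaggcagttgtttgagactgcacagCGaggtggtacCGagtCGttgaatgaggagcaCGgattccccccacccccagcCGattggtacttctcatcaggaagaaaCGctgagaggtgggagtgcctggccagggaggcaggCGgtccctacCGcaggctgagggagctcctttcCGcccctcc

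*Hyal1* (chr9:107576700-107576949, plus strand): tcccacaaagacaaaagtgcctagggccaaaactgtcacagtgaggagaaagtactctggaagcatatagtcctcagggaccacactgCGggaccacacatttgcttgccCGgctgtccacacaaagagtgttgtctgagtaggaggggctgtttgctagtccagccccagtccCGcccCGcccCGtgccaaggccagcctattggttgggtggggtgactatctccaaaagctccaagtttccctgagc

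The full windows differed widely in CpG content. *Cemip* held 33 CpGs, more than 91.4% of the 32851 mouse promoter windows, with an observed to expected ratio of 0.83. *Vcan* held 12 and *Hyal1* 8, against a median of 7 per window. Among the other members with a window, *Hyal2* held 18, *Tnfaip6* 12, *Cd44* 6 and *Has1* 5. *Cemip* and *Hyal2*, the members with most CpGs, differed in opposite directions between the groups. On both strands, the letters CAGAC of the SMAD box occurred in *Has1*, *Cemip*, *Hyal1* and *Tnfaip6*, and in 49.6% of all windows. The AP-1 letters TGANTCA occurred in *Tnfaip6* (7.81% of all windows) and the TEAD letters GGAATG in *Hyal2* and *Tnfaip6* (14.7%). None of the 7 windows held a CArG box, found in 1.63% of all windows. No matches overlapped one another in these windows, and a match or its absence describes these windows only.

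Among the 10 members, 4 were lower and 2 higher in CRE at an adjusted p under 0.05 in the edgeR fit across all genes. In that fit 51.2% of the 12862 tested genes were called, 25.7% lower and 25.5% higher. The groups did not overlap for 7 of the 10 members, against 59.6% of tested genes. The median log2 fold change of the members was -0.04, and that of all tested genes 0.01. Members ran from *Cemip* at -1.80 to *Hyal1* at 0.95, so the family did not move as a block. With libraries scaled by size alone, which raised the median log2 fold change of all tested genes to 0.17, calls across all tested genes went from 3277 higher and 3306 lower to 5529 and 2083. Under that scaling 3 members were higher and 3 lower.

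**Figure D1:**
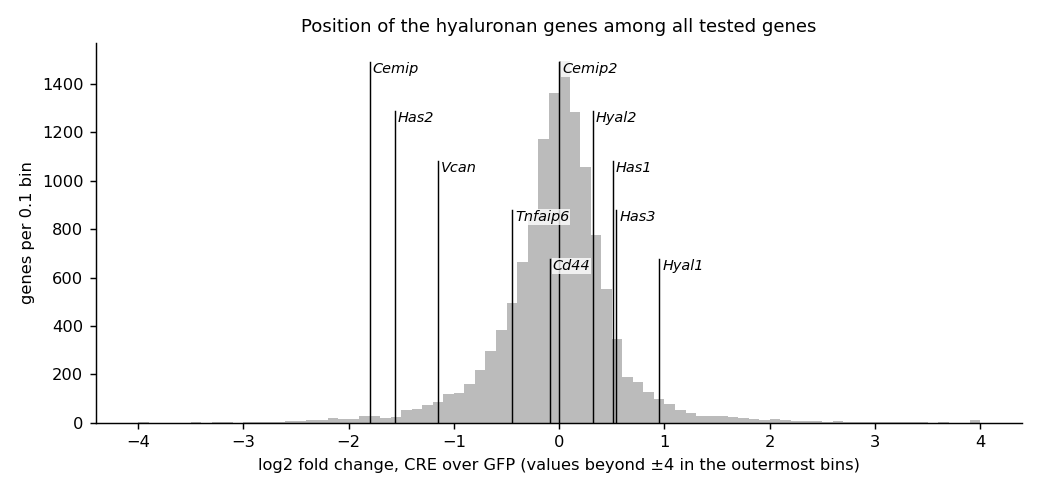
Histogram of log2 fold changes (CRE over GFP) of the 12862 tested genes in bins of 0.1, with vertical lines at the 10 hyaluronan genes; line height only separates the names. *Cemip*, *Has2* and *Vcan* sit in the lower tail at -1.80, -1.56 and -1.15, *Hyal1* lies at 0.95, and *Cemip2* and *Cd44* lie near the centre.

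The synthases were dominated by *Has2*, the isoform that makes most hyaluronan in mesenchymal cells. *Has2* (ENSMUSG00000022367, chromosome 15, positions 56665627 to 56694539) had 648, 1254 and 1064 counts in GFP and 333, 344 and 371 in CRE. These correspond to 40.3, 70.7 and 55.3 CPM in GFP and 17.9, 19.1 and 19.6 CPM in CRE. The GFP libraries were spread widely, with replicate 1 lowest, yet each lay above every CRE library. CRE libraries averaged 34.0% of the 55.4 ± 15.2 CPM (SD, n = 3) in GFP, and the log2 fold change was -1.56 (SE 0.17). Without GFP replicate 1 it was -1.74, and without GFP replicate 2 it was -1.35. In bulk RNA, fewer cells that express a gene and less RNA per cell cannot be told apart, here and below. An antisense gene, *Has2os*, overlaps *Has2* on the other strand, and since the strand setting of the counting is not stated, its reads cannot be told apart from those of *Has2*.

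*Has1* and *Has3*, the other synthases, were close to the limit of detection. *Has1* had 5, 18 and 14 counts in GFP and 20, 16 and 19 in CRE, and the groups overlapped. *Has3* had 14, 12 and 16 counts in GFP and 20, 21 and 23 in CRE, which did not overlap. Their log2 fold changes were 0.51 (SE 0.38) and 0.54 (SE 0.28), neither past the threshold, with intervals of 2 SE from -0.26 to 1.28 and from -0.02 to 1.09. The value of *Has1* ranged from 0.19 without GFP replicate 1 to 0.88 without GFP replicate 2. *Has3* overlaps *Chtf8* on the other strand.

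On the per-length scale (FPKM, the scale on which the levels of different genes are compared here), *Has2* made up 97.0%, 96.4% and 96.2% of summed synthase FPKM in GFP and 85.6%, 87.7% and 87.1% in CRE. The means were 96.5% ± 0.40 and 86.8% ± 1.13 (SD, n = 3). Summed synthase FPKM was 12.8 ± 3.55 in GFP and 5.42 ± 0.21 in CRE. *Has2* therefore remained the main synthase transcript in every library, at a lower level. The larger share of *Has1* in CRE, 9.22% ± 1.08 against 2.29% ± 0.68, rested on its 16 to 20 counts and on the smaller synthase sum. *Has1* itself stood at 0.31 ± 0.16 FPKM in GFP and 0.50 ± 0.05 FPKM in CRE (SD, n = 3). The difference in its share, 6.93 percentage points, was 4.31 when counts were divided by the longest transcript in place of FPKM.

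The depolymerases gave the largest difference of the family. *Cemip* (ENSMUSG00000052353, chromosome 7, positions 83932857 to 84086502) codes for a secreted hyaluronan-binding protein needed for hyaluronan depolymerisation by skin and synovial fibroblasts. Its counts were 26369, 28904 and 31980 in GFP and 8815, 7840 and 9593 in CRE. In CPM, the GFP group stood at 1640, 1629 and 1662 and the CRE group at 473.6, 434.2 and 506.5, without overlap and with little spread. The means were 1643 ± 16.5 CPM in GFP and 471.4 ± 36.2 CPM in CRE (SD, n = 3), so that 28.7% was left and the log2 fold change was -1.80 (SE 0.06). Only 139 of the tested genes had a lower log2 fold change.

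*Cemip2*, a transmembrane relative of *Cemip* with a proposed role in hyaluronan breakdown at the cell surface, did not follow it. Its libraries stood at 93.6, 107.4 and 98.4 CPM in GFP and 94.7, 105.4 and 99.2 CPM in CRE, fully overlapping. The interval of its log2 fold change was -0.12 to 0.12 (2 SE either side). With library size alone it was 0.16 and past the threshold. *Cemip* supplied 93.9% ± 0.44 of the summed FPKM of the pair in GFP and 81.4% ± 1.82 in CRE (SD, n = 3). Summed depolymerase FPKM was 232.6 ± 2.24 in GFP and 86.0 ± 4.79 in CRE.

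Summed synthase and summed depolymerase FPKM were both lower in CRE, through *Has2* and *Cemip* alone, and the ratio of the sums changed little. The log2 ratio of summed synthase to summed depolymerase FPKM was -4.64, -3.83 and -4.20 in GFP and -4.04, -3.91 and -4.02 in CRE. The CRE values lay inside the GFP range, and the difference of means, 0.23, was smaller than the GFP SD of 0.41. It was 0.02 without GFP replicate 1 and 0.43 without GFP replicate 2. Being a ratio within a library, it does not depend on how libraries were scaled.

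**Figure D2:**
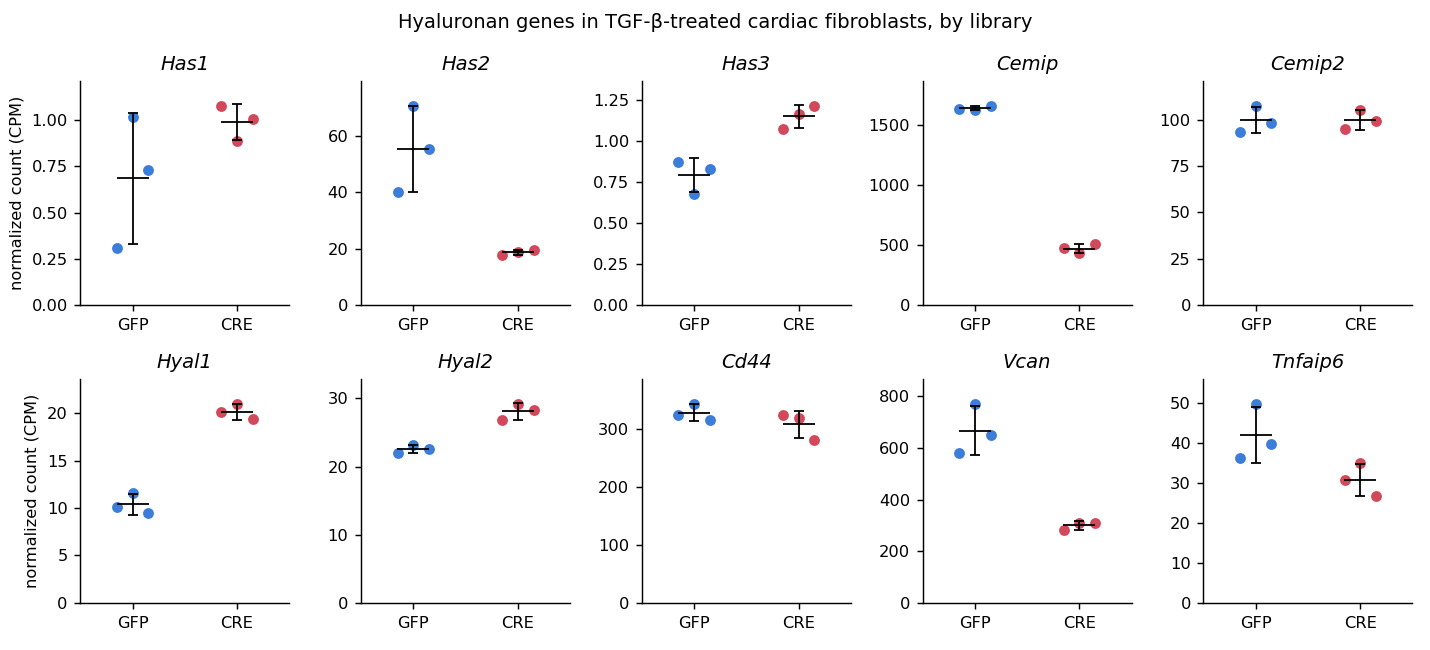
Normalized counts (CPM, linear axes from 0, a separate scale per gene) of the 10 genes in each library. Points are the 3 GFP (blue) and 3 CRE (red) libraries, horizontal bars are means and error bars are SD. CRE points lie below all GFP points for *Has2*, *Cemip*, *Vcan* and *Tnfaip6*, above them for *Has3*, *Hyal1* and *Hyal2*, and among them for *Has1*, *Cemip2* and *Cd44*.

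The classical hyaluronidases moved the other way. *Hyal1* (ENSMUSG00000010051), the lysosomal enzyme, had 163, 206 and 182 counts in GFP and 375, 379 and 366 in CRE. Every CRE library lay above every GFP library. The means were 10.4 ± 1.10 CPM in GFP and 20.2 ± 0.83 CPM in CRE (SD, n = 3), which is 193.8% of the control level, and the log2 fold change was 0.95 (SE 0.09). *Hyal1* overlaps *Hyal3* and *Naa80* on the same strand, and how reads shared between them were assigned is not stated. *Hyal3* had between 4 and 11 counts per library.

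*Hyal2* (ENSMUSG00000010047), whose product is anchored at the cell surface and cuts long chains into fragments, was higher by less. Its libraries stood at 22.0, 23.2 and 22.6 CPM in GFP and 26.8, 29.2 and 28.4 CPM in CRE. The groups did not overlap, and the log2 fold change was 0.32 (SE 0.06). On the per-length scale *Hyal1* supplied 20.7% ± 4.10 of the summed hyaluronidase FPKM in GFP and 28.5% ± 2.46 in CRE. Summed hyaluronidase FPKM went from 16.7 ± 2.36 to 25.96 ± 3.02 (SD, n = 3), which stayed well below the depolymerase sum in both groups. Unlike CPM, the FPKM sums, here and for the other families, are not scaled for library composition.

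**Figure D3:**
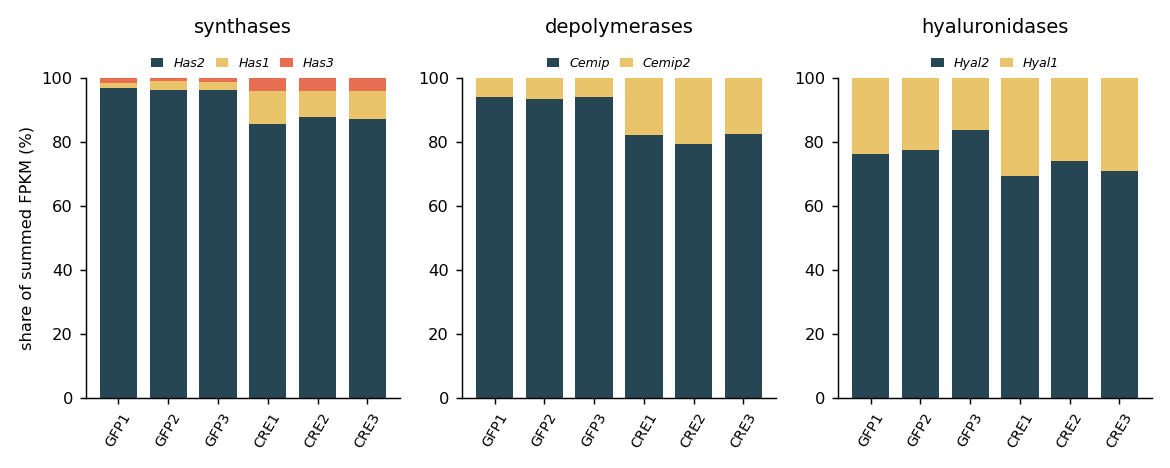
Share of summed FPKM (percent) contributed by each gene within the synthases (left), the depolymerases (middle) and the hyaluronidases (right) in each library. *Has2* goes from 96.5% to 86.8% of the synthases, *Cemip* from 93.9% to 81.4% of the depolymerases, and *Hyal1* goes from 20.7% to 28.5% of the hyaluronidases.

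The receptor *Cd44* (ENSMUSG00000005087), the main hyaluronan receptor of the cell surface, was abundant in both groups. Its libraries stood at 324.9, 343.7 and 315.2 CPM in GFP and 324.1, 319.2 and 281.4 CPM in CRE. The groups overlapped. Its log2 fold change of -0.09 (SE 0.06) did not pass the threshold, with an interval of -0.21 to 0.03 (2 SE either side), and its sign turned positive with library size alone (0.07). Without CRE replicate 3 it was -0.02, and with any 1 library left out it lay between -0.12 and -0.02.

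*Vcan* (ENSMUSG00000021614, chromosome 13, positions 89655312 to 89742509) codes for versican, the large proteoglycan that binds hyaluronan through its N-terminal domain. It stood at 581.5, 772.3 and 650.4 CPM in GFP and at 281.2, 311.3 and 310.5 CPM in CRE. No CRE library reached the lowest GFP library. The GFP libraries averaged 668.1 ± 96.7 CPM (SD, n = 3) and the CRE libraries 45.1% of that, and the log2 fold change was -1.15 (SE 0.09). *Tnfaip6*, which codes for an enzyme that transfers heavy chains of inter-alpha-inhibitor onto hyaluronan, stood at 36.4, 49.9 and 39.7 CPM in GFP and at 30.7, 35.0 and 26.9 CPM in CRE. The nearest libraries of both groups, GFP replicate 1 and CRE replicate 2, were almost level. Its log2 fold change was -0.45 (SE 0.12), past the threshold with TMM scaling but not with library size alone (-0.29) or on log2(FPKM + 1) values (-0.27).

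Per length, *Cemip* was the highest member in the GFP libraries at 218.4 ± 2.38 FPKM. *Cd44* (84.9 ± 5.12 FPKM) and *Vcan* (73.5 ± 11.3 FPKM) came next and overlapped each other. *Tnfaip6* followed at 23.2 ± 3.90 FPKM, then *Cemip2* (14.3 ± 1.02), *Hyal2* (13.3 ± 2.55) and *Has2* (12.4 ± 3.40), which did not differ beyond their spread. *Hyal1* stood at 3.40 ± 0.33, *Has1* at 0.31 ± 0.16 and *Has3* at 0.14 ± 0.01. In the CRE libraries *Cd44* was first at 87.9 ± 5.92 FPKM, above *Cemip* at 70.1 ± 5.25 and *Vcan* at 38.7 ± 2.04. *Hyal1* at 7.34 ± 0.19 FPKM then lay above *Has2* at 4.70 ± 0.23 (SD, n = 3 throughout).

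The count divided by FPKM and library total gives the transcript length that the FPKM implies, a quantity that does not depend on the level of a gene and was not used to choose the members. Among genes with 1 annotated transcript it was within 1% of the annotated length in every library for 767 of 786 genes (97.6%), so FPKM here follow counts, length and library total. Of 8 members with at least 50 counts in every library, *Vcan* alone had groups that lay further apart than the rounding of FPKM to 3 decimals allows, where 11.5% of 10531 genes did. Its implied length was 8.62, 8.51 and 8.67 kb in GFP and 8.14, 8.30 and 8.24 kb in CRE, with means of 8.60 ± 0.08 kb and 8.23 ± 0.08 kb (SD, n = 3). An exact two-sided permutation test gave p = 0.1, the smallest that 3 against 3 allows. *Cemip* had the same p, but its 7.11 kb differed between libraries by no more than that rounding. The ratio of 0.956 lay within the range of 0.942 to 1.06 that held the middle of the genes (5th to 95th percentile). GENCODE M21 lists *Vcan* transcripts of 12427, 8332 and 5702 bases and shorter ones, and their separate levels were not analysed here. *Cd44*, another alternatively spliced member, had 3.65 ± 0.06 kb in GFP and 3.70 ± 0.04 kb in CRE, which overlapped. *Hyal2* varied most within groups, from 1.34 to 1.90 kb in GFP, so its FPKM carry that variation beside its counts.

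**Figure D4:**
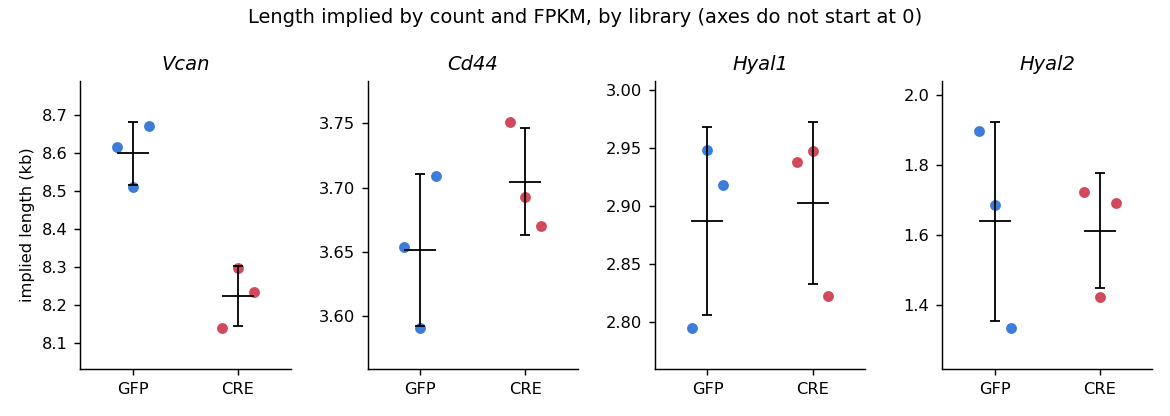
Transcript length in kb implied by count and FPKM for 4 members with several annotated transcripts, by library (axes do not start at 0); points are libraries, bars means and error bars SD. The 3 CRE points of *Vcan*, 8.14 to 8.30 kb, lie below its 3 GFP points, 8.51 to 8.67 kb, and the groups overlap for *Cd44*, *Hyal1* and *Hyal2*.

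A list of 47 other genes of hyaluronan supply, binding, reception and turnover, drawn up by function with earlier results of these data known, was then read from the same fit. Its counts, medians and calls are therefore a description too, as for the members, and cannot show a shift of the pathway. Of its 34 tested genes, 15 were lower and 5 higher, with a median log2 fold change of -0.17, against 25.7% lower and 25.5% higher and a median of 0.01 across all tested genes. With library size alone the same 34 genes split into 12 lower and 12 higher, and with log2(FPKM + 1) values into 11 and 10. All tested genes moved in the same way, to 2083 lower and 5529 higher with library size alone and to 1916 and 4976 with log2(FPKM + 1) values. The median of the list was -0.01 in both, against 0.17 and 0.13 for all tested genes. With TMM scaling the medians of its groups ran from -1.31 for the versican proteases to 0.16 for precursor supply. *Adamts1*, *Adamts5*, *Adamts9*, *Ptx3*, *Itih2*, *Acan*, *Stab1*, *Tlr2*, *Ugp2* and *Hexa* were lower and past the threshold in all 16 other fits, and *Gfpt2*, *Uxs1*, *Hmmr* and *Ezr* were higher and past it in all 16.

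The proteases that cut versican were lower without exception among the 4 tested of 6 listed, with a median log2 fold change of -1.31. *Adamts5* fell from 359.0, 471.1 and 441.8 CPM to 120.6, 110.0 and 127.0 CPM, or by -1.83 on the log2 scale (SE 0.09, adjusted p = 4.96e-07). *Adamts1* fell from 155.0, 210.5 and 175.8 CPM to 43.7, 55.2 and 50.1 CPM, or by -1.86 (SE 0.11, adjusted p = 9.95e-07). Both CRE groups lay far below their GFP groups. *Adamts9* (-0.80, adjusted p = 0.000417) and *Adamts4* (-0.40, adjusted p = 0.00184) were lower by less, and *Adamts4* did not pass on log2(FPKM + 1) values (-0.20).

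Other hyaluronan-binding proteins and cross-linkers were lower in 4 of 9 tested genes and higher in none. *Ptx3*, a pentraxin that binds the heavy chains on hyaluronan, stood at 175.2, 280.7 and 275.8 CPM in GFP and 105.8, 106.3 and 92.8 CPM in CRE. The log2 fold change was -1.26 (SE 0.15, adjusted p = 7.16e-05), and GFP replicate 1 was again the lowest of its group. *Itih2*, a heavy chain of inter-alpha-inhibitor, fell to 53.0% of 22.8 ± 1.20 CPM (SD, n = 3, log2 fold change -0.91, adjusted p = 2.19e-05). *Acan*, which codes for the versican relative aggrecan, was singled out after its values were seen. It had 169, 162 and 182 counts in GFP and 22, 15 and 18 in CRE, which is 10.2% of the GFP level in CPM (log2 fold change -3.28, SE 0.17, adjusted p = 4.96e-07). On FPKM, where *Acan* is low, it was -2.45 with a pseudocount of 0.1 and -1.06 with a pseudocount of 1. *Itih4* was also lower (-0.69, adjusted p = 0.0396) at 25 to 61 counts per library.

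Across the 19 members and listed genes that were lower in CRE, GFP replicate 1 was the lowest of the GFP libraries for 10 (52.6%), against 35.4% of all genes lower in CRE. *Has2*, *Vcan*, *Tnfaip6*, *Ptx3*, *Adamts1*, *Adamts5* and *Adamts9* were among them. Without that library the same numbers of members (4 lower, 2 higher) and of listed genes (15 lower, 5 higher) passed.

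Of 8 genes that make or convert the UDP-sugar precursors, 3 were higher, 1 was lower and 4 did not pass. *Gfpt2*, a rate-limiting enzyme of the hexosamine pathway, rose from 372.1, 461.0 and 393.7 CPM to 566.1, 596.6 and 574.9 CPM, or by 0.50 on the log2 scale (SE 0.07, adjusted p = 0.000222). *Uxs1*, which turns UDP-glucuronic acid into UDP-xylose, rose by 0.21 (adjusted p = 0.00774). *Pgm3*, also of the hexosamine pathway, rose by 0.19 (adjusted p = 0.0279) but not past the threshold without GFP replicate 2 (0.16) or CRE replicate 1 (0.14). *Ugp2*, which makes UDP-glucose, fell by 0.47 on the log2 scale (adjusted p = 0.000213). *Ugdh*, which oxidises UDP-glucose to UDP-glucuronic acid, stood at 0.15 (SE 0.07, adjusted p = 0.104).

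The other receptors went in both directions, with 1 higher and 3 lower of 6 tested. *Hmmr*, a hyaluronan-binding protein that also acts at the mitotic spindle, rose by 0.45 (SE 0.10, adjusted p = 0.00392). *Stab1*, a scavenger receptor of sinusoidal endothelium and macrophages, fell from 60.9 ± 3.19 CPM to 31.7 ± 3.25 CPM (SD, n = 3, log2 fold change -0.94, adjusted p = 5.96e-06). *Tlr2*, which can respond to hyaluronan fragments, fell by 0.53 (adjusted p = 0.000579). *Lyve1*, the hyaluronan receptor of lymphatic endothelium, had 10, 18 and 19 counts in GFP and 5, 3 and 3 in CRE (log2 fold change -2.12, adjusted p = 0.00215). Endothelial and macrophage marker sums, given above, were lower in CRE as well, the macrophage sum mostly through *Lyz2*. The lymphatic sum was higher through *Flt4* alone (34.8 ± 4.04 CPM in GFP, 67.4 ± 7.04 CPM in CRE, SD, n = 3), while *Prox1* fell by 0.46 on the log2 scale. The part of these markers in the values of *Stab1*, *Tlr2* and *Lyve1* was not tested.

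The intracellular partners of CD44 split. *Ezr* rose from 10.04 ± 0.68 CPM to 18.3 ± 0.76 CPM (SD, n = 3, log2 fold change 0.86, adjusted p = 2.71e-05). *Msn*, at 1317 ± 58.4 CPM in GFP (SD, n = 3), and *Rdx* fell by 0.24 and 0.23 (adjusted p = 0.00195 and adjusted p = 0.00248), though neither passed with library size alone (-0.08 and -0.07). *Nf2* did not pass (-0.03, adjusted p = 0.628). Among other breakdown enzymes, *Hexa* fell by 0.29 (adjusted p = 0.000765), *Gusb* did not pass, and *Hyal4*, *Hyal5*, *Hyal6* and *Spam1* had no count in any library, which allows up to between 0.156 and 0.187 CPM per library (3 counts, counting error only).

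**Figure D5:**
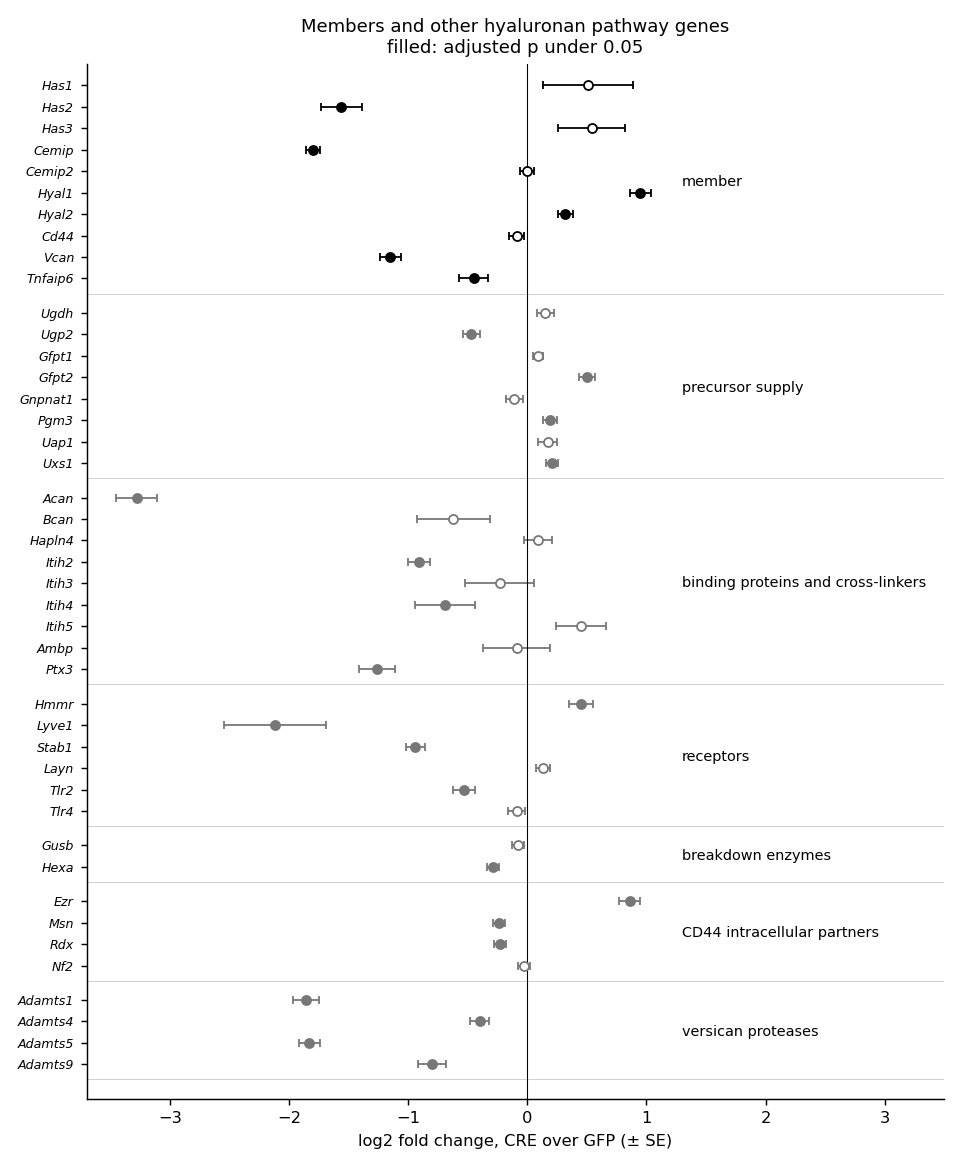
Log2 fold change, CRE over GFP, with its SE for the 10 members (black) and the genes of the wider hyaluronan list that are reported here (grey), grouped by role; filled points have an adjusted p under 0.05. All 4 tested versican proteases lie left of 0, *Acan* is the lowest at -3.28, and precursor genes scatter on both sides of 0.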

How the data were processed

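RNA-seq libraries of 3 GFP and 3 CRE samples were grouped by sample title. The authors used Trimmomatic and HISAT2 (mouse genome GRCm38) and deposited raw counts per gene from HTSeq-count and FPKM from Cufflinks, as their methods state. Tool versions and the strand setting are not given in the sources used here, and labels and methods name different library kits. The authors' group means of FPKM, log2 fold change, p-value and false discovery rate were also deposited and were not used. Low genes were dropped with filterByExpr at a minimum count of 10 and a total of 15. Counts were scaled by TMM and tested with edgeR 4.0.16 (two-sided quasi-likelihood test, R 4.3.3), adjusted by Benjamini-Hochberg over the 12862 genes kept. The SE is the absolute log2 fold change over the square root of F. On simulated data the test gave every recovered gene its true direction, and its share of false calls was above the nominal level. Coordinates and lengths came from GENCODE M21, promoters from RefSeq (GRCm38.p6). The members and lists were chosen with earlier results of these data known. Named genes are the members, *Tet3* and listed genes past the threshold with a mean of at least 10 CPM; *Acan*, *Itih4*, *Lyve1* and other genes were named after their values were seen. Some genes counted in the lists are not reported here by name. Intervals of log2 fold changes are 2 SE either side and include the spread between libraries; the floors of 3 counts cover counting error only. Alternatives were other scalings and filters, DESeq2 1.42.0, limma 3.58.1 (voom, and log2 FPKM with pseudocounts 1 and 0.1), a replicate block and leaving out each library.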

Additional observations from a re-analysis of the deposited data

How the results depend on the processing

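*Tet3* stayed lower and past the threshold in all 16 other fits (log2 fold changes from -0.78 to -0.55; -0.78 to -0.62 across those that left out 1 library), as did *Has2* (-1.74 to -1.20), *Cemip* (-1.85 to -1.63) and *Vcan* (-1.24 to -0.90), and *Hyal1* (0.89 to 1.12) and *Hyal2* (0.29 to 0.49) stayed higher. The balance of directions differed between fits. Across all tested genes, library size alone gave 5529 higher and 2083 lower, log2(FPKM + 1) values 4976 and 1916, and log2(FPKM + 0.1) values 4989 and 1909. The wider list then had 12, 10 and 10 genes higher in place of 5. *Cemip2* moved to 0.16, 0.15 and 0.16 and *Cd44* to 0.07, 0.05 and 0.05. For library size alone, this follows from the scaling. FPKM follow the library total too, but whether that accounts for those fits was not tested. *Cemip2* was at 0.02 with upper-quartile scaling, at 0.00 with at least 10 counts in every library, and between -0.05 and 0.05 with 1 library left out. *Pgm3* did not pass in DESeq2 (0.19). Counting per kilobase of the longest transcript in place of FPKM, the drop in the *Has2* share of synthases was -7.19 percentage points in place of -9.74, and the cause was not tested. The number of members whose groups did not overlap in implied length ranged from 1 to 2 with 1 library left out (2 without GFP replicate 3 or CRE replicate 1). The replicate numbers are shared by the groups, but same-numbered libraries deviated together in no regular way (correlations of 0.046, 0.18 and -0.018), so they were not treated as pairs; with the number as a block, 6633 genes were called in all, 6 members, 21 genes of the wider list and *Cemip2* was at 0.00. Depth limits *Has1*, *Has3* and *Lyve1*, at 23 counts or fewer per library.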

Other observations

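The GO annotation in the deposited table names hyaluronan in a term of 54 genes, which include all 10 members and 25 of the wider list. The other 19 were looked up after the table had been opened. Of the 16 tested, 4 were higher, 4 lower and 8 did not pass the threshold, close to the shares of all tested genes. *Fgf2*, a growth factor annotated to hyaluronan breakdown, rose from 389.0 ± 55.6 CPM to 773.5 ± 70.7 CPM (SD, n = 3), or by 0.99 on the log2 scale (edgeR adjusted p = 1.89e-05). *Ccnd3*, annotated to hyaluronan synthesis, rose by 0.24 (adjusted p = 0.00586). *Smpd3*, annotated as a negative regulator of hyaluronan synthesis, rose by 1.07 at a mean of 2.46 CPM in CRE (adjusted p = 0.00484).

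The lower genes were *Il1b*, a cytokine (-2.06, adjusted p = 0.00105, at 0.36 ± 0.12 CPM in CRE), *C1qbp* (-0.71, adjusted p = 1.27e-05), *Ptger4*, a prostaglandin receptor annotated as a positive regulator of hyaluronan synthesis (-0.43, adjusted p = 0.00933), and *Ap2a1* (-0.17, adjusted p = 0.0218). *Tgfb1* (0.11, adjusted p = 0.175), *Nfkb1* (0.06, adjusted p = 0.502), *Pdgfb* (-0.26, adjusted p = 0.103) and *Abcc5*, a transporter annotated to hyaluronan synthesis (-0.04, adjusted p = 0.610), did not pass.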
